A study of Mus musculus with 12 samples.

Results

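Melanosomes are the lysosome-related organelles in which melanocytes make and store pigment, and 34 genes whose products build them, load them with cargo and carry them along the cytoskeleton were followed in 12 RNA-seq libraries from 3 mouse cell lines. The 34 genes were taken by symbol from the 34513 genes of the deposited count table, and all 34 had a row there. They comprise 5 Rab GTPases, 5 effectors and motors of melanosome transport, the 2 subunits of BLOC-3, 3 of BLOC-2, 4 of the AP-3 adaptor and 7 of BLOC-1, 3 genes of lysosome-related fusion and organelle size, and 5 melanosome membrane proteins and channels. Melan-A is an immortalized, non-tumorigenic mouse melanocyte line, B16F0 is a tumorigenic mouse melanoma line, and B16F10 is a metastatic B16 line. Each line was cultured without treatment or with SX-682, an antagonist of the chemokine receptors CXCR1 and CXCR2, and each of the 6 groups has 2 libraries. The labels list no treatment for the control cultures, name no vehicle, and give neither a dose nor a time for SX-682, and each line is a single culture lineage, so a difference between lines cannot be told apart from other differences between these cultures.

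A new melanosome begins as an endosomal compartment. Cargo such as tyrosinase, Tyrp1 and the copper pump Atp7a then reaches it through the adaptor AP-3 and the BLOC complexes (biogenesis of lysosome-related organelles complexes), with Rab32 and Rab38 as the GTPases that mark the carriers, and BLOC-3 is the exchange factor that switches these GTPases on. The mature organelle carries Rab27a, which holds melanophilin (Mlph), and melanophilin in turn holds the actin motor myosin Va (Myo5a), so that the organelle is captured in the cell periphery. Loss of many of the listed genes in mice dilutes coat colour. Loss of some of them in people causes Hermansky-Pudlak, Griscelli or Chediak-Higashi syndrome.

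The libraries held 48876982 to 85322092 counts on genes. Levels are given as CPM, a count scaled by the library total, after TMM scaling of library sizes, and levels of different genes are compared as CPM per kilobase of the gene length in the table. A change was called at an adjusted p under 0.05 in edgeR's quasi-likelihood test. A filter on low counts left 18338 genes to test, and all 34 melanosome genes were among them. Errors after a log2 value are standard errors (SE), and every adjusted p is from edgeR with Benjamini-Hochberg adjustment over the genes tested. The common biological coefficient of variation between replicates was 2.78%, which lets changes of a few percent pass. With 2 libraries against 2, an exact permutation test could not give a two-sided p under 0.333, so the calls rest on the spread shared over genes and groups, and since the labels do not say that replicates were separate cultures, the p-values measure the spread between these libraries only.

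The lineage label of Melan-A was only partly borne out by its markers. Its controls held the melanocyte regulators Sox10 (670 CPM) and Mitf (102 CPM) and the pigment genes Dct (355 CPM), Mlana (116 CPM) and Tyrp1 (107 CPM), but Tyr, the gene of tyrosinase, was at 0.826 CPM (69 and 77 counts), the melanosome matrix gene Pmel at 8.11 CPM and Kit at 4 to 11 counts per library. The sum of 8 lineage markers was 1340 to 1370 CPM in Melan-A controls, 18600 to 18700 CPM in B16F0 controls and 24400 to 24500 CPM in B16F10 controls, where Kit was at 0. Of the marker lists of other cell types, 6 fibroblast genes summed to 114 to 115 CPM in Melan-A controls. The sum was 16.1 to 16.7 CPM in B16F0 and 8.43 to 9.72 CPM in B16F10. In the same order of lines, Col1a1 was at 46.4, 5.79 and 2.59 CPM and Col3a1 at 53.9, 0.123 and 0.00827 CPM. Lum and Dcn were also highest in Melan-A. Col1a2 ran the other way, at 0.764, 2.36 and 5.14 CPM, and Pdgfra was highest in B16F0, at 4, 8.11 and 1.33 CPM. Keratinocyte markers summed to at most 10.4 CPM, macrophage markers to at most 2.57 CPM and endothelial markers to at most 2.24 CPM in any library. The part of these marker differences in the comparisons between lines was not tested, and in bulk RNA fewer cells of a type and less RNA per cell cannot be told apart.

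Without treatment, 3 of the 5 transport effectors and motors were more abundant in the melanoma lines than in Melan-A, Kif13a was lower in both B16 lines, and Myrip was lower in B16F10. Melanophilin, the Rab27a effector Sytl2 and Rab38 were over 100-fold higher in both B16 lines, Rab27a and Myo5a were several-fold higher, and the cation channel gene Mcoln3 and the GTPase gene Rab17 were far lower. The listed subunits of BLOC-1, BLOC-2, BLOC-3 and AP-3 lay within 2.19-fold of Melan-A. Of the 34 genes, 22 were higher in B16F0 than in Melan-A and 8 were lower, where 35.3% and 40.6% of all tested genes were higher and lower. In B16F10, 24 were higher and 6 lower than in Melan-A, against 33.4% and 40.8% of all tested genes. The median log2 difference over the 34 genes was 0.36 for B16F0 and 0.43 for B16F10, and over all tested genes it was -0.06 and -0.10. Without Myrip and Mcoln3, which had groups at or under the floor of 3 counts per library used here, the medians were 0.39 and 0.47. The genes that did not pass in the B16F0 comparison were Hps1, Myrip, Bloc1s1 and Bloc1s3, and those in the B16F10 comparison were Hps1, Hps3, Ap3s1 and Bloc1s1.

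**Figure D1:**
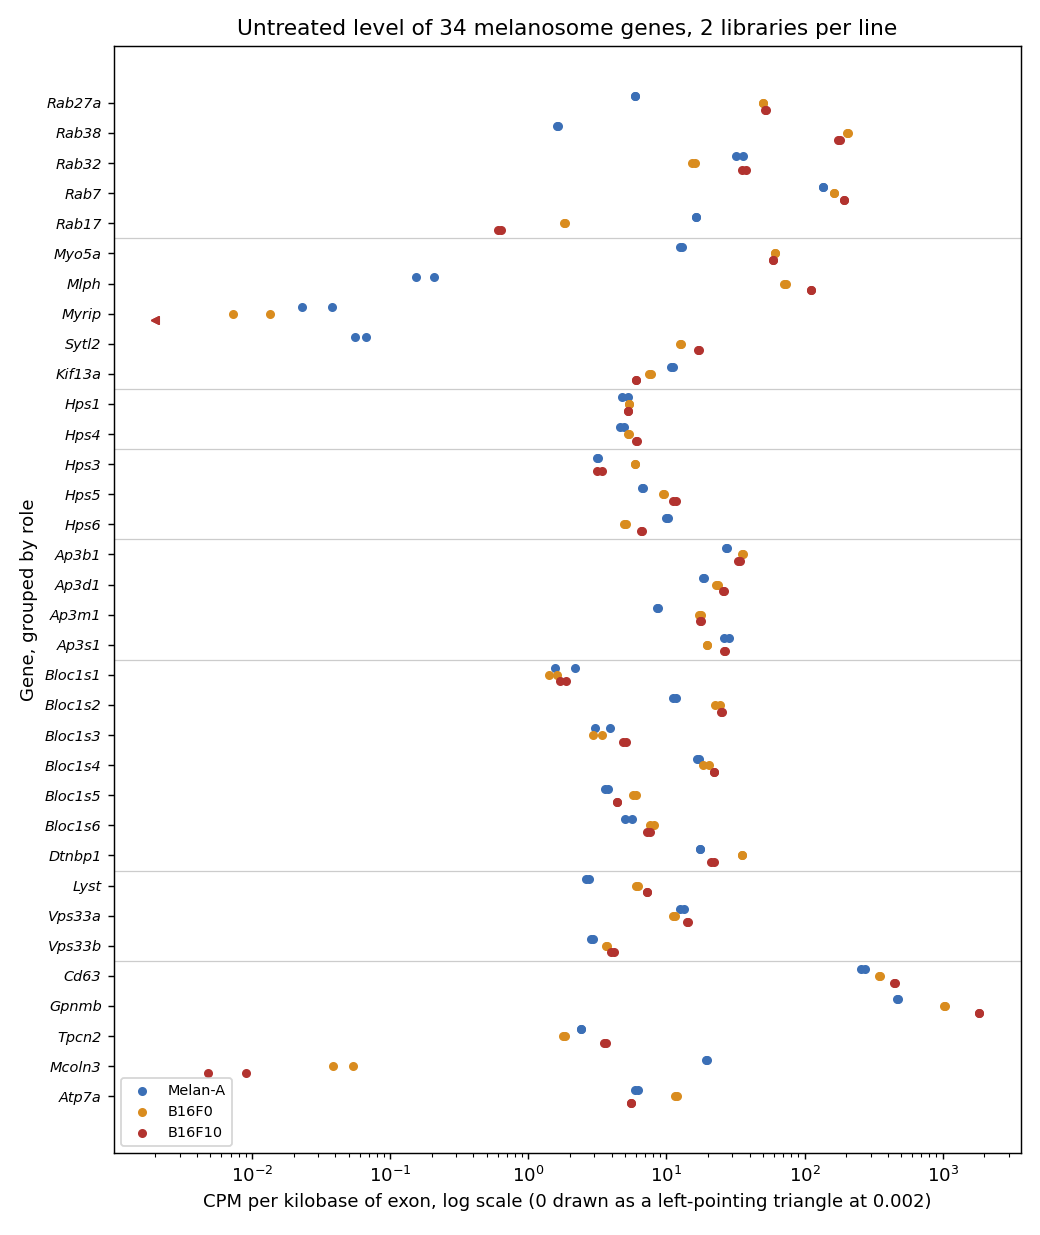
Untreated level of each of the 34 genes as CPM per kilobase on a log axis, with 1 point for each of the 2 control libraries of Melan-A, B16F0 and B16F10 and horizontal lines between role groups. Mlph, Sytl2 and Rab38 lie far to the right in the B16 lines, Mcoln3 and Rab17 lie far to the right in Melan-A, and most complex subunits lie close together.

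Mlph (ENSMUSG00000026303, chr1:90915085-90951142, plus strand) had the largest difference of the genes that were higher in the B16 lines. Its control libraries held 1.11 and 0.826 CPM in Melan-A, 381 and 393 CPM in B16F0 and 594 and 594 CPM in B16F10. The level in Melan-A was 0.251% of that in B16F0 and 0.163% of that in B16F10, a log2 difference of 8.64 ± 0.056 (adjusted p = 3.1e-39) and 9.26 ± 0.055 (adjusted p = 2.9e-40). Sytl2 (ENSMUSG00000030616, chr7:90302252-90410719, plus strand), whose product tethers Rab27a-bearing melanosomes at the plasma membrane, was in controls at 0.776 and 0.936 CPM in Melan-A, 174 and 177 CPM in B16F0 and 236 and 240.2 CPM in B16F10. These are log2 differences from Melan-A of 7.67 ± 0.065 (adjusted p = 1.2e-36) and 8.12 ± 0.064 (adjusted p = 2.1e-37). For Rab38 (ENSMUSG00000030559, chr7:88430273-88491572, plus strand), the controls held 2.59 and 2.55 CPM in Melan-A, 326 and 319 CPM in B16F0 and 274 and 283 CPM in B16F10. Its log2 differences were 6.97 ± 0.05 (adjusted p = 2.6e-38) and 6.76 ± 0.05 (adjusted p = 5.5e-38). In none of the 3 genes did a Melan-A library come near a B16 library. The Melan-A level of the 3 genes was 0.163% to 0.924% of a B16 level, and that of Tyr and Pmel was 0.152% to 1.21%, so these 5 genes shared a low residual level in Melan-A, and whether its reads came from Melan-A cells was not tested.

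Rab27a (ENSMUSG00000032202, chr9:73044854-73097629, plus strand) and Myo5a (ENSMUSG00000034593, chr9:75071015-75223688, plus strand) were clearly present in Melan-A but lower than in the melanoma lines. Rab27a was in controls at 22.8 and 22.9 CPM in Melan-A, 195 and 192 CPM in B16F0 and 200 and 202 CPM in B16F10. Its log2 difference from Melan-A was 3.08 ± 0.033 (adjusted p = 2.8e-34) in B16F0 and 3.14 ± 0.033 (adjusted p = 2.3e-34) in B16F10, an 8.48-fold and 8.80-fold higher level. Between the B16 lines Rab27a differed by 0.054 ± 0.028 (adjusted p = 0.094), which did not pass. The paralog gene Rab27b is outside the list and was named after its values were seen. It was higher in Melan-A, with log2 differences from Melan-A of -10.5 ± 0.17 (adjusted p = 5.3e-29) in B16F0 and -6.50 ± 0.11 (adjusted p = 5.2e-28) in B16F10. Control libraries held for Myo5a 192 and 184 CPM in Melan-A, 897 and 909.8 CPM in B16F0 and 871 and 876 CPM in B16F10, with log2 differences from Melan-A of 2.26 ± 0.023 (adjusted p = 1.3e-34) and 2.21 ± 0.023 (adjusted p = 2.6e-34) and a B16F10 minus B16F0 difference of -0.049 ± 0.022 (adjusted p = 0.053). Per kilobase, the 3 partners of the Rab27a, melanophilin and myosin Va complex stood at 50.0, 72.2 and 61.0 CPM in B16F0 and at 51.9, 111 and 59.0 CPM in B16F10, and at 5.89, 0.181 and 12.7 CPM in Melan-A. Per kilobase, melanophilin was thus the scarcest transcript of the 3 in Melan-A and the most abundant in both B16 lines. The order in the B16 lines depends on the length used, which counts all merged exons of a gene. By CPM, Myo5a stood above Mlph, at 904 against 387 CPM in B16F0 and 873 against 594 CPM in B16F10.

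The effector Myrip, which links Rab27a to myosin VIIa chiefly in the retinal pigment epithelium, was near the limit of detection in all 3 lines. It had 11 and 19 counts in the Melan-A controls, 3 and 5 in B16F0 and 0 and 0 in B16F10. Against the floor of 3 counts per library, Melan-A was at least 3.49-fold higher than B16F10 (edgeR adjusted p = 0.00044, 0.0001 to 0.011 over the alternatives), and its difference from B16F0 did not pass (adjusted p = 0.077). A floor covers counting error only. The kinesin gene Kif13a (ENSMUSG00000021375, chr13:46749087-46929867, minus strand), whose product draws endosomal tubules towards melanosomes, was higher in Melan-A, with 90.8 and 88.3 CPM in Melan-A, 63.8 and 61.3 CPM in B16F0 and 49.2 and 49.6 CPM in B16F10. Its log2 differences from Melan-A were -0.52 ± 0.037 (adjusted p = 2.1e-13) in B16F0 and -0.86 ± 0.039 (adjusted p = 2.3e-18) in B16F10.

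Rab32 and Rab38 are closely related GTPases with overlapping roles in cargo delivery, and their balance differed between the lines. Rab32 (ENSMUSG00000019832, chr10:10545002-10558265, minus strand) was in controls at 75.1 and 83.7 CPM in Melan-A, 35.9 and 37.6 CPM in B16F0 and 87.3 and 83.0 CPM in B16F10. B16F10 exceeded B16F0 by 1.21 ± 0.046 (adjusted p = 9.2e-20) on the log2 scale, and B16F0 lay below Melan-A, with a log2 difference of -1.11 ± 0.046 (adjusted p = 2.2e-19). The difference between B16F10 and Melan-A was small, 0.10 ± 0.043 (adjusted p = 0.037), the libraries of the groups overlapped, and the call was lost under 5 of 17 alternatives (adjusted p 0.00056 to 0.57). Of the summed level per kilobase of both genes, Rab32 made up 95.1% and 95.7% in the Melan-A controls, 6.92% and 7.38% in B16F0 and 17.7% and 16.5% in B16F10. With SX-682 the Rab32 share was 93.4% and 94.7%, 6.10% and 6.11%, and 13.8% and 13.6% in the 3 lines. The order of the 2 genes was therefore the same with and without SX-682 in every library of a line.

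Rab17 (ENSMUSG00000026304, chr1:90958133-90969661, minus strand), a GTPase of recycling endosomes that has been tied to melanosome release from filopodia, ran the other way. Its controls held 32.5 and 32.4 CPM in Melan-A, 3.68 and 3.60 CPM in B16F0 and 1.21 and 1.27 CPM in B16F10. The log2 difference from Melan-A was -3.15 ± 0.079 (adjusted p = 8.1e-25) in B16F0 and -4.71 ± 0.098 (adjusted p = 6.9e-27) in B16F10, and the B16F10 minus B16F0 difference was -1.56 ± 0.13 (adjusted p = 1.1e-11). Rab17 and Mlph lie 6990 bases apart on chromosome 1 on opposite strands, with their 3′ ends facing and Prlh annotated between them, and stood in opposite order between the lines. Mcoln3 (ENSMUSG00000036853, chr3:146117450-146141806, plus strand), the gene of the endolysosomal cation channel TRPML3, had 5820 and 6177 counts in the Melan-A controls, 14 and 9 in B16F0 and 1 and 2 in B16F10. The ratio of Melan-A to B16F0 was 418, with a 95% counting interval of 279 to 660, and that to B16F10 was 2810, with an interval of 960 to 13600. The B16F10 minus B16F0 difference of Mcoln3 passed as well (-2.66 ± 0.74, adjusted p = 0.0024), on 3 counts in all in B16F10. Rab7, the late endosome GTPase, was more even, at 136, 164 and 192 CPM per kilobase in Melan-A, B16F0 and B16F10.

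The melanosome glycoprotein gene Gpnmb (ENSMUSG00000029816, chr6:49036546-49070929, plus strand) had the highest level per kilobase of the 34 genes in each line. Its controls were at 3039 and 3111 CPM in Melan-A, 6708 and 6656 CPM in B16F0 and 11960 and 11970 CPM in B16F10. It ranked 7th by count among all genes of the table in both Melan-A control libraries, 2nd in those of B16F0 and 1st in those of B16F10, where it took 1.12% of the counts. The log2 difference from Melan-A was 1.12 ± 0.014 (adjusted p = 3.7e-32) in B16F0 and 1.96 ± 0.015 (adjusted p = 6.5e-38) in B16F10. The tetraspanin gene Cd63, whose product sorts Pmel, followed at 264, 349 and 448 CPM per kilobase. In B16F0 the next highest were Rab38 (204 ± 3.2, SD, n = 2) and Rab7 (164 ± 0.35), and in B16F10 they were Rab7 (192 ± 0.91) and Rab38 (177 ± 4.2), in that order. The copper pump gene Atp7a was at 53.1 ± 1.4, 102 ± 2.0 and 48.6 ± 0.14 CPM (SD, n = 2) in the 3 lines in the same order, and the channel gene Tpcn2 at 12.7 ± 0.016, 9.56 ± 0.17 and 18.9 ± 0.58 CPM.

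The 2 subunits of BLOC-3 stood close together, and the highest and lowest subunits of the larger complexes lay farther apart. The ratio of the highest to the lowest subunit can only grow as subunits are added. Complexes with 2, 3, 4 and 7 listed subunits are therefore not ranked by it. The BLOC-1 values leave out Snapin, a further subunit that is not on the list. Hps1 and Hps4, the partners in BLOC-3, stood within 1.06-fold of each other per kilobase in Melan-A controls, 1.02-fold in B16F0 and 1.14-fold in B16F10. The highest and lowest subunits differed 3.17-fold, 1.90-fold and 3.49-fold in BLOC-2, 3.15-fold, 2.01-fold and 1.90-fold in AP-3, and 9.39-fold, 23.3-fold and 14.0-fold in BLOC-1. The lowest of the 7 listed BLOC-1 subunits was Bloc1s1 in all 3 lines, at 1.52 to 1.86 CPM per kilobase. Bloc1s1 shares 55.9% of its exonic bases with Rdh5 on the same strand in GENCODE M21, so its counts are uncertain. Ap3m1 was 2.03-fold and 2.04-fold higher in B16F0 and B16F10 than in Melan-A, and Bloc1s2 2.05-fold and 2.19-fold. Hps6 was 2.01-fold and 1.52-fold lower. Dtnbp1 was 2.02-fold higher in B16F0 and 1.24-fold higher in B16F10, and Lyst 2.27-fold and 2.69-fold higher.

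Between the melanoma lines, 16 of the 34 genes were higher in B16F10 than in B16F0 and 10 were lower, and 30.8% and 31.2% of all tested genes were. The higher genes included Rab32, Tpcn2 (log2 difference 0.98 ± 0.084, adjusted p = 1.9e-11), Gpnmb (0.84 ± 0.014, adjusted p = 2e-28), Bloc1s3 (0.65 ± 0.094, adjusted p = 6.1e-07) and Mlph (0.62 ± 0.029, adjusted p = 1e-17). The lower genes included Rab17, Mcoln3, Atp7a (-1.07 ± 0.037, adjusted p = 5.9e-21), Hps3 (-0.85 ± 0.049, adjusted p = 1.7e-15) and Dtnbp1 (-0.71 ± 0.033, adjusted p = 1.5e-17).

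SX-682 changed most of the 34 genes in each line by modest amounts. Of the 28 genes called in 2 or 3 lines, 19 were called in 1 direction only and 9 in opposite directions in different lines. Neither these counts nor those by number of lines below were made over all tested genes, so they are not read as particular to the 34. In Melan-A more of the 34 genes rose than fell, with 15 raised and 9 lowered, while 23.4% of all tested genes were raised and 24.7% lowered. B16F0 had 10 raised and 13 lowered (25.1% and 25% of all tested genes), and B16F10 had 9 raised and 16 lowered (25.5% and 25.3%). The median log2 fold change of the 34 genes was 0.093, -0.075 and -0.01 in the 3 lines, and 0.047, -0.075 and -0.067 without Myrip and Mcoln3, where the median over all tested genes was 0 in each line. The median size of the change, without its sign, was 0.22, 0.21 and 0.30, below the 0.31, 0.32 and 0.36 of all tested genes. Some genes moved alike everywhere: 5 were raised in all 3 lines (Hps1, Hps3, Ap3b1, Bloc1s6 and Lyst) and 4 were lowered in all 3 (Myo5a, Vps33a, Tpcn2 and Atp7a), with 11.3% and 11.7% of all tested genes doing so. Another 5 were called in all 3 lines in differing directions (Rab27a, Rab17, Mlph, Gpnmb and Kif13a), 14 were called in 2 lines, 2 in 1 line, and Myrip, Hps6, Bloc1s1 and Bloc1s2 in none. Marker sums differed between control and SX-682 libraries as well. The sum of the 8 lineage markers went from 1340 to 1370 CPM in controls to 1350 to 1360 CPM with SX-682 in Melan-A, from 18600 to 18700 CPM to 15800 to 16000 CPM in B16F0, and from 24400 to 24500 CPM to 14900 to 15200 CPM in B16F10. The fibroblast sum was 114 to 115 CPM in the Melan-A controls and 93.5 to 94.8 CPM with SX-682. Log2 fold changes in Melan-A were -2.42 ± 0.24 (adjusted p = 1.3e-09) for Lum, -1.36 ± 0.31 (adjusted p = 0.00053) for Dcn and -0.39 ± 0.063 (adjusted p = 4.5e-06) for Col3a1. Col1a2 fell as well (-1.515 ± 0.33, adjusted p = 0.00032), while Col1a1 (-0.012 ± 0.056, adjusted p = 0.89) and Pdgfra (0.19 ± 0.13, adjusted p = 0.25) did not pass. The sum went from 16.1 to 16.7 CPM to 16.3 to 16.8 CPM in B16F0 and from 8.43 to 9.72 CPM to 8.56 to 9.27 CPM in B16F10. Col1a1 rose in both B16 lines (0.52 ± 0.085 and 0.53 ± 0.11), while Pdgfra fell in B16F0 (-0.48 ± 0.13) and Col1a2 in B16F10 (-0.61 ± 0.21). Col3a1 rose in B16F10 on 0 to 8 counts per library. The part of these markers in the SX-682 changes was not tested.

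**Figure D2:**
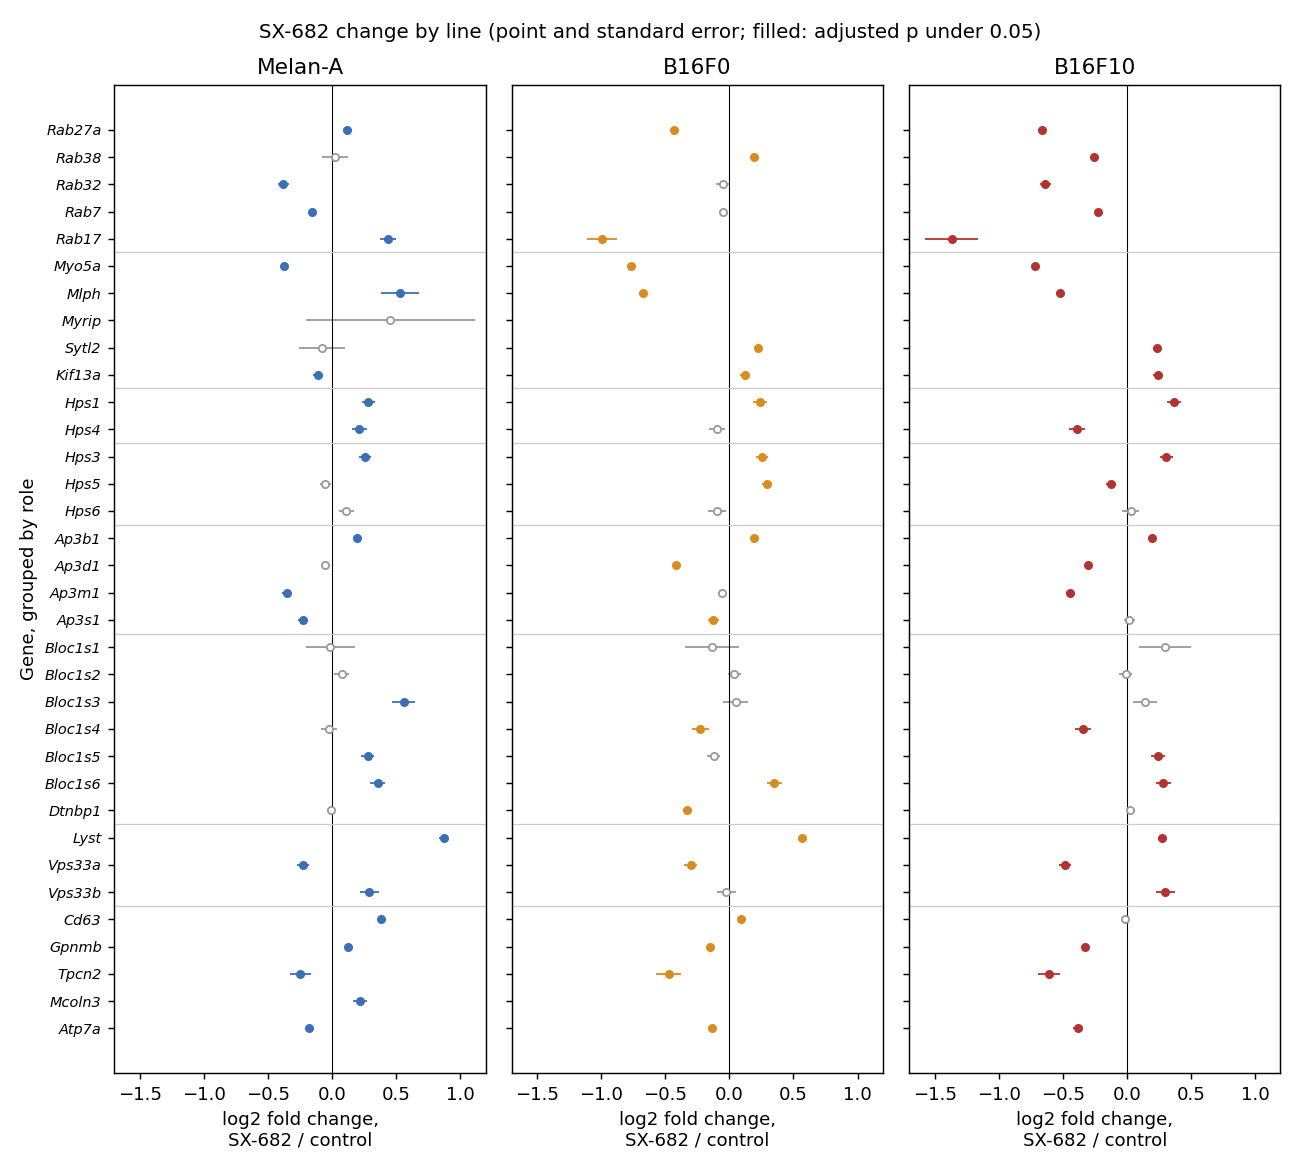
SX-682 log2 fold change of each gene in Melan-A, B16F0 and B16F10, with its standard error and filled points where the edgeR adjusted p was under 0.05. Myrip and Mcoln3 are drawn in Melan-A alone, since their B16 libraries held at most 14 counts. Rab27a, Mlph, Rab17 and Gpnmb lie right of 0 in Melan-A and left of it in both B16 lines.

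The 3 genes of the Rab27a, melanophilin and myosin Va complex all fell in both melanoma lines. Myo5a fell in every line, from 192 and 184 to 145 and 144 CPM in Melan-A, from 897 and 909.8 to 534 and 529 CPM in B16F0 and from 871 and 876 to 526 and 536 CPM in B16F10. The log2 fold changes of Myo5a were -0.38 ± 0.023 (adjusted p = 3.2e-14), -0.76 ± 0.022 (adjusted p = 4.4e-22) and -0.72 ± 0.022 (adjusted p = 1.4e-21). The fall of Myo5a was larger in the B16 lines, with a B16 minus Melan-A difference of -0.36 ± 0.028 (adjusted p = 1.1e-11), and no difference between B16F10 and B16F0 passed (0.047 ± 0.031, adjusted p = 0.3).

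Rab27a libraries went from 22.8 and 22.9 to 25.1 and 24.5 CPM in Melan-A, from 195 and 192 to 143 and 144 CPM in B16F0 and from 200 and 202 to 126 and 128 CPM in B16F10. The groups did not overlap in any line, and the B16 changes were falls while the Melan-A change was a small rise. Log2 fold changes of Rab27a were 0.12 ± 0.038 (adjusted p = 0.0091), -0.43 ± 0.028 (adjusted p = 8.8e-14) and -0.66 ± 0.029 (adjusted p = 4.3e-18). The rise of Rab27a in Melan-A was lost without the first SX-682 library and in a fit of that line alone (adjusted p 0.0035 to 0.063 over 18 alternatives). The B16 minus Melan-A difference of the change was -0.67 ± 0.043 (adjusted p = 1.7e-13), and the B16F10 minus B16F0 difference was -0.23 ± 0.04 (adjusted p = 5.3e-05), so B16F10 fell further than B16F0. The paralog gene Rab27b rose in Melan-A (log2 fold change 0.85 ± 0.056, adjusted p = 2.3e-13) and did not pass in B16F0 (adjusted p = 0.086) or B16F10 (adjusted p = 0.8).

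Mlph was counted 96 and 75 times in the Melan-A controls and 83 and 121 times with SX-682, which is 1.11 and 0.826 to 1.16 and 1.61 CPM. The B16F0 libraries went from 381 and 393 to 244 and 240.3 CPM and those of B16F10 from 594 and 594 to 414 and 412 CPM. Log2 fold changes of Mlph were 0.53 ± 0.15 (adjusted p = 0.0032), -0.68 ± 0.03 (adjusted p = 7.6e-18) and -0.52 ± 0.029 (adjusted p = 1.3e-15). The rise in Melan-A was lost without the second control library, without the second SX-682 library and in a fit of Melan-A alone (adjusted p 0.0001 to 0.28 over 18 alternatives), so the direction in Melan-A rests on few reads. The falls in both B16 lines passed under all 18 alternatives. The B16 minus Melan-A difference of Mlph was -1.13 ± 0.15 (adjusted p = 3.4e-07).

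Not every transport gene fell. Sytl2 rose in both B16 lines, from 174 and 177 to 204 and 206 CPM in B16F0 and from 236 and 240.2 to 274 and 288 CPM in B16F10, whereas the Melan-A libraries, at 0.776 and 0.936 CPM in controls and 0.617 and 0.999 CPM with SX-682, overlapped. Its log2 fold changes were 0.23 ± 0.033 (adjusted p = 1.2e-06) in B16F0, 0.24 ± 0.033 (adjusted p = 3.1e-07) in B16F10 and -0.077 ± 0.18 (adjusted p = 0.77) in Melan-A. The difference of the Sytl2 change between B16 and Melan-A did not pass (0.31 ± 0.18, adjusted p = 0.22), and it passed without the second SX-682 library of Melan-A (adjusted p = 0.014, 0.014 to 1 over 17 alternatives). Kif13a rose in the B16 lines and was lower with SX-682 in Melan-A, going from 90.8 and 88.3 to 83.2 and 82.3 CPM in Melan-A, 63.8 and 61.3 to 65.5 and 70.9 CPM in B16F0 and 49.2 and 49.6 to 57.7 and 59.2 CPM in B16F10. These were log2 fold changes of -0.11 ± 0.037 (adjusted p = 0.011), 0.12 ± 0.039 (adjusted p = 0.011) and 0.24 ± 0.041 (adjusted p = 7.8e-06), and the Melan-A and B16F0 calls were lost when 1 of several libraries was left out (adjusted p 0.0069 to 0.12 and 0.001 to 0.24). The libraries concerned were the first control and both SX-682 libraries in Melan-A and the second control and second SX-682 libraries in B16F0. The difference of the Kif13a change, B16 minus Melan-A, was 0.30 ± 0.046 (adjusted p = 5.9e-06). Myrip did not pass in any line, with 15 and 19 counts in Melan-A, 7 and 8 in B16F0 and 4 and 1 in B16F10 with SX-682.

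**Figure D3:**
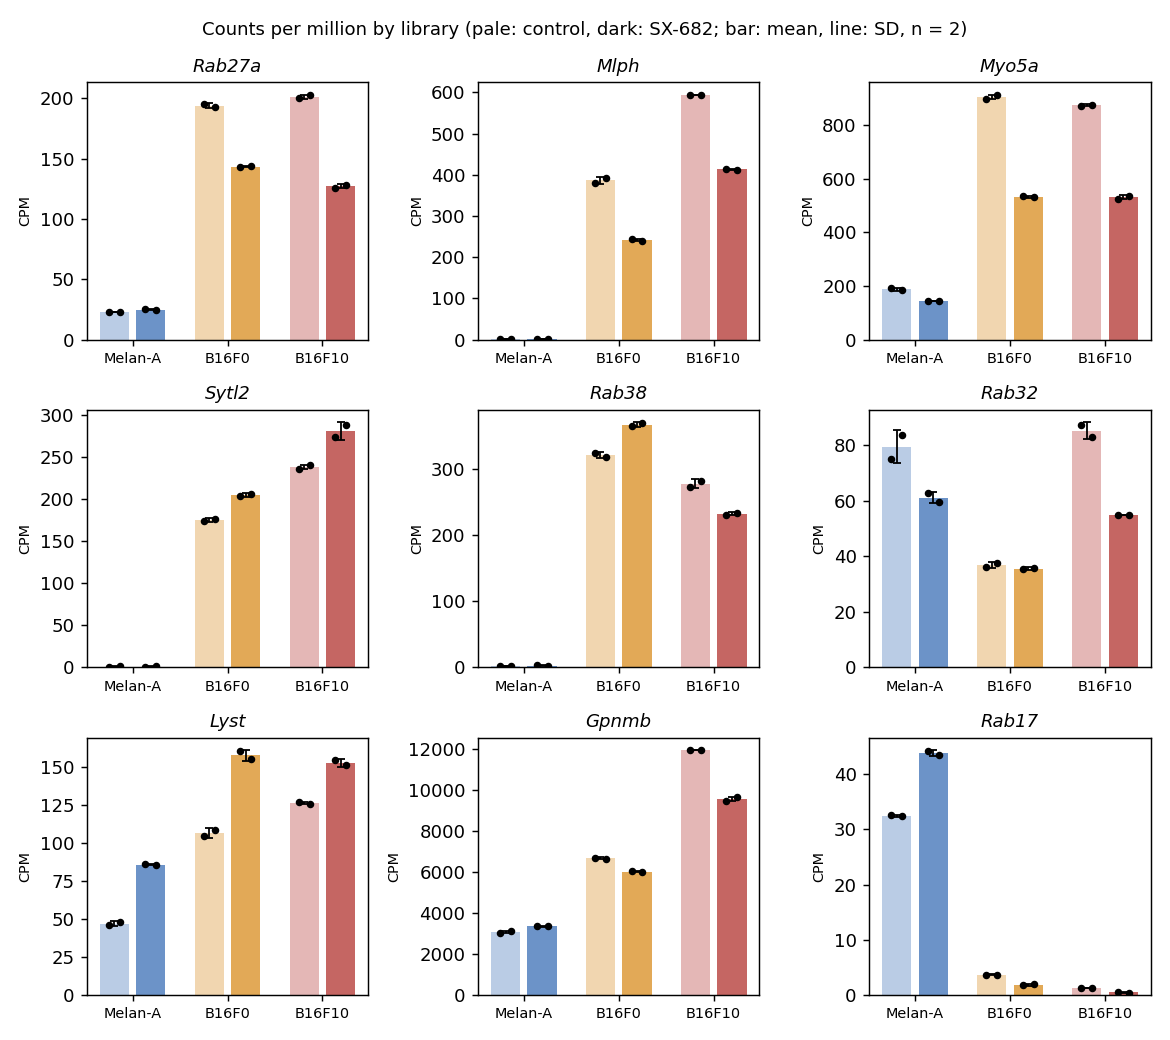
CPM in each library (points), with the mean (bar) and SD (line, n = 2), for 9 genes in control (pale) and SX-682 (dark) cultures of the 3 lines. The dark bars of Rab27a, Mlph and Myo5a lie below the pale bars in B16F0 and B16F10, those of Sytl2 and Lyst lie above them, and Mlph, Sytl2 and Rab38 are near 0 in Melan-A.

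Among the Rab GTPases, all 5 fell in B16F10, 2 fell and 1 rose in B16F0, and 2 rose and 2 fell in Melan-A. Of all tested genes, 25.3% fell in B16F10, 25% fell and 25.1% rose in B16F0, and 23.4% rose and 24.7% fell in Melan-A. Rab17 went from 32.5 and 32.4 to 44.3 and 43.5 CPM in Melan-A, 3.68 and 3.60 to 1.72 and 1.97 CPM in B16F0 and 1.21 and 1.27 to 0.561 and 0.393 CPM in B16F10. Its log2 fold changes were 0.44 ± 0.061 (adjusted p = 5.3e-07), -0.99 ± 0.12 (adjusted p = 5.6e-08) and -1.37 ± 0.21 (adjusted p = 1.9e-06), the last on 73 and 81 counts in controls and 34 and 23 with SX-682. Rab17 had the most negative B16 minus Melan-A difference of the 34 genes, -1.62 ± 0.14 (adjusted p = 5.6e-11).

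Rab32 fell from 75.1 and 83.7 to 62.5 and 59.6 CPM in Melan-A and from 87.3 and 83.0 to 54.8 and 54.9 CPM in B16F10, and was at 35.9 and 37.6 CPM in controls and 35.2 and 35.8 CPM with SX-682 in B16F0. The log2 fold changes were -0.38 ± 0.044 (adjusted p = 1.3e-08), -0.63 ± 0.045 (adjusted p = 5.1e-13) and, in B16F0, -0.052 ± 0.05 (adjusted p = 0.43). Rab38 rose in B16F0, from 326 and 319 to 366 and 371 CPM, fell in B16F10, from 274 and 283 to 232 and 234 CPM, and did not change detectably in Melan-A, where the libraries held 2.59 and 2.55 CPM in controls and 3.0 and 2.24 CPM with SX-682. These were log2 fold changes of 0.19 ± 0.03 (adjusted p = 2.7e-06), -0.26 ± 0.03 (adjusted p = 1.9e-08) and 0.021 ± 0.1 (adjusted p = 0.9). The change of both paralogs was more negative in B16F10 than in B16F0, with a difference of -0.58 ± 0.068 (adjusted p = 7.3e-08) for Rab32 and -0.45 ± 0.043 (adjusted p = 1.6e-09) for Rab38. Rab7 fell by a log2 change of 0.16 in Melan-A and 0.23 in B16F10, and its change in B16F0 was -0.048 ± 0.023 (adjusted p = 0.09).

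The 2 subunits of BLOC-3 parted. Hps1 (ENSMUSG00000025188, chr19:42755105-42779978, minus strand) rose in all 3 lines, going from 28.0 and 31.0 to 35.1 and 36.6 CPM in Melan-A, 31.5 and 31.5 to 36.8 and 37.5 CPM in B16F0 and 31.0 and 30.9 to 38.4 and 41.7 CPM in B16F10, with log2 fold changes of 0.28 ± 0.052 (adjusted p = 3.4e-05), 0.24 ± 0.054 (adjusted p = 0.00047) and 0.37 ± 0.054 (adjusted p = 8.7e-07). Hps4 (ENSMUSG00000042328, chr5:112343083-112378414, plus strand) rose in Melan-A, from 18.2 and 19.4 to 21.7 and 21.9 CPM, and fell in B16F10, from 24.1 and 23.7 to 18.4 and 18.0 CPM, with 20.7 and 21.1 CPM in controls and 19.4 and 19.7 CPM with SX-682 in B16F0. Log2 fold changes of Hps4 were 0.21 ± 0.058 (adjusted p = 0.003), -0.39 ± 0.061 (adjusted p = 2.6e-06) and, in B16F0, -0.10 ± 0.061 (adjusted p = 0.2), and the Melan-A call was lost without the first control library (adjusted p 0.0015 to 0.052 over 18 alternatives). The B16 minus Melan-A difference of the Hps4 change was -0.45 ± 0.072 (adjusted p = 7.4e-06). Per kilobase Hps1 went from 1.02-fold to 1.28-fold of Hps4 in B16F0. In B16F10 Hps4 was 1.14-fold above Hps1 in controls and Hps1 was 1.48-fold above Hps4 with SX-682.

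In BLOC-2, Hps3 (ENSMUSG00000027615, chr3:19995945-20035315, minus strand) rose in all 3 lines, from 29.1 and 28.6 to 33.4 and 35.5 CPM in Melan-A, 53.6 and 54.1 to 64.6 and 63.6 CPM in B16F0 and 31.2 and 28.4 to 37.8 and 35.8 CPM in B16F10. Its log2 fold changes were 0.26 ± 0.049 (adjusted p = 4.9e-05), 0.25 ± 0.046 (adjusted p = 2.9e-05) and 0.31 ± 0.051 (adjusted p = 7e-06). Hps5 rose in B16F0 (0.29 ± 0.041, adjusted p = 4.3e-07) and fell in B16F10 (-0.12 ± 0.041, adjusted p = 0.012), a call lost without the second control or the first SX-682 library of B16F10, and Hps6 passed in no line.

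The AP-3 subunits did not move together. Ap3b1 (ENSMUSG00000021686, chr13:94358960-94566317, plus strand), the beta subunit, rose by nearly the same amount in each line, from 122 and 125 to 140.2 and 142 CPM in Melan-A, 162 and 159.5 to 183 and 184 CPM in B16F0 and 150.5 and 154 to 177 and 172 CPM in B16F10. The log2 fold changes were 0.19 ± 0.027 (adjusted p = 6.5e-07), 0.19 ± 0.027 (adjusted p = 6.8e-07) and 0.20 ± 0.028 (adjusted p = 4.4e-07). Ap3d1, the delta subunit, fell by a log2 change of 0.41 in B16F0 and 0.30 in B16F10, and was at -0.052 ± 0.028 (adjusted p = 0.13) in Melan-A. Ap3m1, the mu subunit, fell in Melan-A (-0.35 ± 0.033, adjusted p = 2.8e-10) and B16F10 (-0.44 ± 0.032, adjusted p = 4.9e-13) and did not pass in B16F0 (-0.055 ± 0.031, adjusted p = 0.15). Ap3m1 shares 29.8% of its exonic bases with Vcl on the opposite strand, the log2 fold change of Vcl was -0.54 in Melan-A, 0.00088 in the B16F0 cultures and -0.50 in those of B16F10, and the strand setting of the counting is not given in the sources used here, so reads of the pair cannot be told apart. Ap3s1 fell in Melan-A (-0.23 ± 0.041, adjusted p = 2.7e-05) and in B16F0 (-0.13 ± 0.044, adjusted p = 0.018), and the B16F0 call was lost in DESeq2 (adjusted p = 0.064, 0.0084 to 0.098 over 18 alternatives) and without the first control or second SX-682 library.

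Of the 7 listed BLOC-1 subunits, 3 rose in Melan-A, 1 rose and 2 fell in B16F0, and 2 rose and 1 fell in B16F10. The shares of all tested genes were 23.4% raised in Melan-A, 25.1% raised and 25% lowered in B16F0, and 25.5% raised and 25.3% lowered in B16F10. Snapin, a further BLOC-1 subunit outside the list, rose in B16F0 (log2 fold change 0.13 ± 0.056, adjusted p = 0.049) and B16F10 (0.28 ± 0.058, adjusted p = 0.00017). In Melan-A it did not pass (0.13 ± 0.055, adjusted p = 0.051). Bloc1s6 (ENSMUSG00000005804, chr2:122738503-122749475, plus strand), the pallidin gene, rose in each line, from 19.6 and 22 to 26.0 and 27.4 CPM in Melan-A, 31.9 and 29.5 to 39.9 and 38.4 CPM in B16F0 and 29.5 and 28.2 to 35.4 and 34.9 CPM in B16F10. Its log2 fold changes were 0.36 ± 0.058 (adjusted p = 5.6e-06), 0.35 ± 0.057 (adjusted p = 4.8e-06) and 0.28 ± 0.058 (adjusted p = 0.00011). Bloc1s3 (ENSMUSG00000057667, chr7:19504486-19508367, minus strand) rose in Melan-A from 9.67 and 12.5 to 16.3 and 16.4 CPM, and was at 10.8 and 9.32 CPM in controls and 9.93 and 11 CPM with SX-682 in B16F0 and 16.2 and 15.4 CPM in controls and 17.3 and 17.6 CPM with SX-682 in B16F10. Log2 fold changes of Bloc1s3 were 0.56 ± 0.09 (adjusted p = 5e-06), 0.048 ± 0.1 (adjusted p = 0.74) and 0.14 ± 0.091 (adjusted p = 0.21), and its B16 minus Melan-A difference was -0.46 ± 0.11 (adjusted p = 0.0014). Bloc1s5 rose in Melan-A (0.28) and B16F10 (0.25), Bloc1s4 fell in B16F10 (-0.34) and in B16F0 (-0.23, lost without the first control or first SX-682 library), and Dtnbp1, the dysbindin gene, fell in B16F0 (-0.33), all on the log2 scale.

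Lyst (ENSMUSG00000019726, chr13:13590397-13778803, plus strand), the gene mutated in beige mice with giant lysosomes and melanosomes, had the largest rise of the 34 genes in Melan-A. It went from 45.8 and 48.1 to 86.2 and 85.5 CPM in Melan-A, 104 and 109 to 160.5 and 155 CPM in B16F0 and 127 and 126 to 155 and 151 CPM in B16F10, so that every SX-682 library lay above both controls of its line. The log2 fold changes were 0.87 ± 0.034 (adjusted p = 7.9e-19), 0.57 ± 0.032 (adjusted p = 3.1e-15) and 0.27 ± 0.032 (adjusted p = 1.3e-08). The rise was smaller in the B16 lines than in Melan-A, with a difference of -0.45 ± 0.041 (adjusted p = 3.1e-10), and smaller in B16F10 than in B16F0, with a difference of -0.29 ± 0.045 (adjusted p = 7.1e-06). Vps33a (ENSMUSG00000029434, chr5:123528659-123573038, minus strand), a subunit of the HOPS tethering complex that is mutated in buff mice, fell from 59.8 and 64.5 to 50.3 and 55.8 CPM in Melan-A, 54.9 and 53.6 to 43.9 and 44.2 CPM in B16F0 and 67.0 and 68.3 to 50.3 and 46.4 CPM in B16F10. Its log2 fold changes were -0.23 ± 0.046 (adjusted p = 0.00013), -0.30 ± 0.049 (adjusted p = 6.2e-06) and -0.48 ± 0.048 (adjusted p = 7e-10). The related gene Vps33b rose in Melan-A (0.29) and B16F10 (0.30) on the log2 scale and did not pass in B16F0.

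Of the 5 membrane proteins and channels, 3 rose and 2 fell in Melan-A, 1 rose and 4 fell in B16F0, and 3 fell in B16F10. Of all tested genes, 23.4% rose and 24.7% fell in Melan-A, 25.1% rose and 25% fell in B16F0, and 25.3% fell in B16F10. Gpnmb rose in Melan-A, from 3039 and 3111 to 3340 and 3348 CPM, and fell in B16F0, from 6708 and 6656 to 6027 and 6008 CPM, and in B16F10, from 11960 and 11970 to 9484 and 9651 CPM. The log2 fold changes were 0.12 ± 0.014 (adjusted p = 2.2e-08), -0.15 ± 0.014 (adjusted p = 2.7e-10) and -0.32 ± 0.014 (adjusted p = 6.8e-18), and they passed under all 18 alternatives. The fall took Gpnmb from 1st to 2nd place by count in both B16F10 libraries. The B16 minus Melan-A difference of the Gpnmb change was -0.36 ± 0.017 (adjusted p = 3.4e-16). Tpcn2 (ENSMUSG00000048677, chr7:145186524-145284011, minus strand), the gene of an endolysosomal cation channel of melanosomes, fell from 12.7 and 12.7 to 11.4 and 9.95 CPM in Melan-A, 9.68 and 9.44 to 7.48 and 6.17 CPM in B16F0 and 19.3 and 18.5 to 12.4 and 12.3 CPM in B16F10. Log2 fold changes of Tpcn2 were -0.25 ± 0.083 (adjusted p = 0.014), -0.47 ± 0.095 (adjusted p = 9.9e-05) and -0.61 ± 0.084 (adjusted p = 3.2e-07), and the Melan-A call was lost without either control or the second SX-682 library (adjusted p 0.0084 to 0.30 over 18 alternatives).

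Atp7a, which brings copper to tyrosinase, had log2 fold changes of -0.18 ± 0.037 (adjusted p = 0.00017), -0.13 ± 0.035 (adjusted p = 0.0018) and -0.38 ± 0.04 (adjusted p = 2e-09) in the 3 lines and fell in each. Cd63 rose in Melan-A (0.38 on the log2 scale) and in B16F0 (0.09) and was at -0.012 ± 0.023 (adjusted p = 0.71) in B16F10. Mcoln3 rose in Melan-A from 67.4 and 68.0 to 79.8 and 77.8 CPM (0.22 ± 0.053, adjusted p = 9e-04). In B16F0 it had 14 and 9 counts in controls and 3 and 2 with SX-682, a ratio of 3.69 of control to SX-682 with a 95% counting interval of 1.37 to 12.4, and the call was lost in 3 of 16 alternatives (adjusted p 0.0095 to 0.14), which left out the first control or either SX-682 library. In B16F10, with 1 and 2 counts in controls and 6 and 0 with SX-682, no change could be detected.

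The SX-682 change differed among the 3 lines in 25 of the 34 genes, and in 47.4% of all tested genes. Set against Melan-A, the mean change of the 2 B16 lines was more negative in 15 genes and more positive in 4 (Kif13a, Hps5, Ap3m1 and Ap3s1), where 17.1% and 18.7% of all tested genes were. The median B16 minus Melan-A difference was -0.14 over the 34 and 0.02 over all tested genes. Among the 15, Tpcn2 lost its call without either control or the first SX-682 library of Melan-A or the second SX-682 library of B16F0. Vps33a lost its call without the first control or second SX-682 library of Melan-A or the second SX-682 library of B16F10. The Bloc1s4 call was lost without the first SX-682 library of Melan-A. Among the called genes, the 5 most negative differences were those of Rab17, Mlph, Rab27a, Bloc1s3 and Hps4. Kif13a, the first of the 4 positive ones, passed under all 17 alternatives, while Ap3s1 lost its call in 2, Hps5 in 11 and Ap3m1 in 13. The count of 4 fell to 1 or 2 when any 1 of 8 libraries was left out: both Melan-A controls, the first SX-682 library of Melan-A, the first control and first SX-682 library of B16F0, the first control of B16F10 and both its SX-682 libraries. Between the melanoma lines, the change was more negative in B16F10 than in B16F0 in 12 genes and more positive in 5 (Mlph, Ap3d1, Bloc1s5, Dtnbp1 and Vps33b), against 14.9% and 15.3% of all tested genes. The Ap3d1 call was lost in DESeq2 (adjusted p = 0.075), with RLE scaling (0.082) and without the second control or first SX-682 library of B16F0 or the second control or second SX-682 library of B16F10 (0.013 to 0.16 over 17 alternatives). The 5 became 3 without the first SX-682 library of B16F0 or without the second control of B16F10. Rab27a, Rab38, Rab32 and Rab7 were among the 12. Of the 12, Vps33a lost its call when any B16 library except the first SX-682 library of B16F10 was left out (difference -0.12 to -0.20). Cd63 lost its call without the second control or first SX-682 library of B16F0. These differences are built from the same libraries as the changes within lines.

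**Figure D4:**
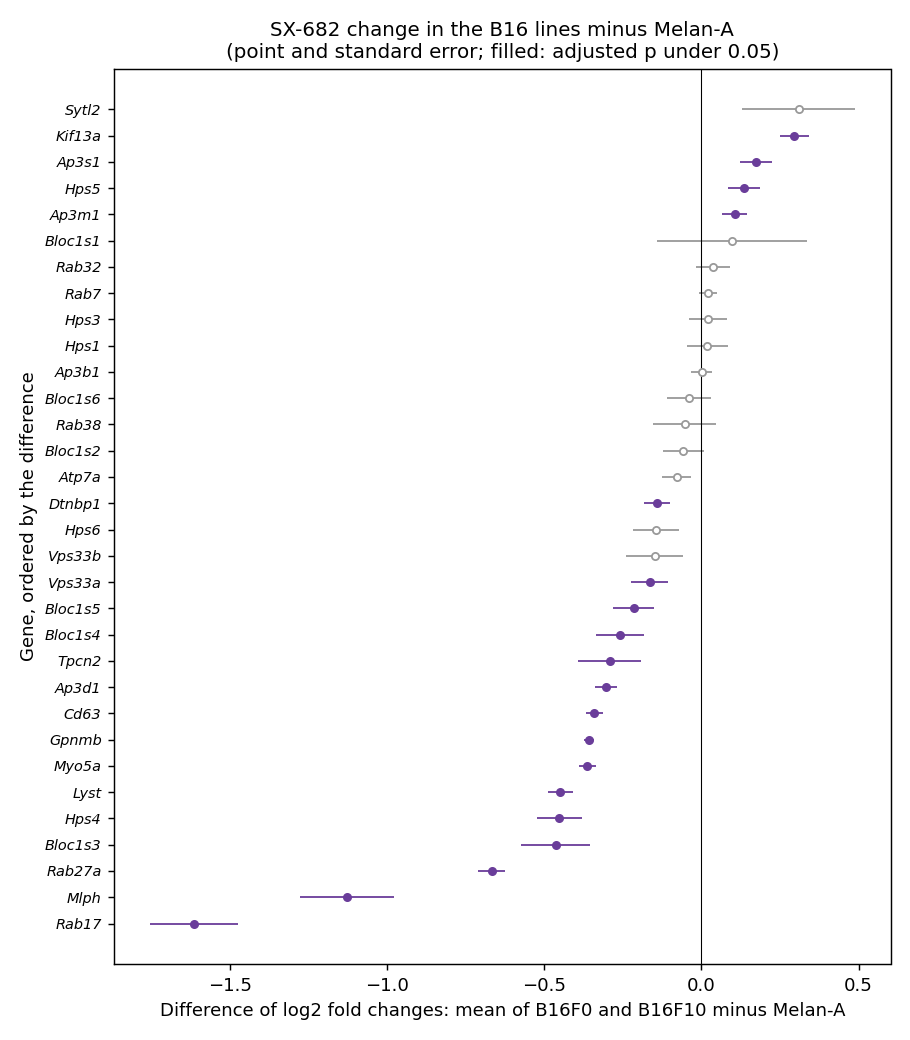
Difference of the SX-682 log2 fold change, mean of B16F0 and B16F10 minus Melan-A, with its standard error, for 32 genes in order of the difference (Myrip and Mcoln3 are left out), with filled points where the edgeR adjusted p was under 0.05. Rab17, Mlph and Rab27a have the most negative differences, and Kif13a has the most positive difference that passed.

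The wider trafficking machinery also moved in both directions. Of 44 further genes of endosome, HOPS, AP-1, SNARE and motor function, which include the BLOC-1 gene Snapin, 41 were tested. In Melan-A 14 rose and 15 fell (34.1% and 36.6%, with 23.4% and 24.7% of all tested genes). In B16F0 8 rose and 15 fell (19.5% and 36.6%, with 25.1% and 25% of all tested genes), and in B16F10 7 rose and 19 fell (17.1% and 46.3%, with 25.5% and 25.3%). Raised in all 3 lines were 4 of the 41 (9.76%, with 11.3% of all tested genes), Ap3m2, the HOPS genes Vps11 and Vps39, and the channel gene Mcoln1, named here after their values were seen. Vps11 had log2 fold changes of 0.64 ± 0.038, 0.43 ± 0.039 and 0.53 ± 0.042 (SE), and Mcoln1, a relative of Mcoln3, 0.49 ± 0.052, 0.21 ± 0.064 and 0.35 ± 0.058. Lowered in all 3 were 9 (22%, with 11.7% of all tested genes), among them the recycling endosome genes Rab11a and Rab11b and the SNARE genes Vamp3 and Stx12. Mreg, the melanoregulin gene, also picked after its values were seen, rose in Melan-A (0.36 ± 0.057) and fell in B16F0 (-0.43 ± 0.049) and B16F10 (-0.36 ± 0.044). Its signs over the 3 lines were those of Rab27a, Mlph, Rab17 and Gpnmb. Sgsm2, another of the 41, had these signs as well (0.18 ± 0.033, -0.18 ± 0.033 and -0.49 ± 0.033). How many of the 41 or of all tested genes share these signs was not counted, so they are not read as particular to these genes.

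Mitf and its relatives Tfeb, Tfe3 and Tfec are transcription factors of melanocytic and lysosomal genes that bind E-box sequences with the core CACGTG. Mitf fell in all 3 lines, with log2 fold changes of -0.36 ± 0.030, -2.11 ± 0.030 and -1.14 ± 0.028 (SE) in Melan-A, B16F0 and B16F10, while Tfeb rose by 0.34, 0.24 and 0.39 and Tfe3 by 0.21, 0.50 and 0.12. Tfec was lower with SX-682 in Melan-A (-0.46 ± 0.14, adjusted p = 0.0083) and did not pass in B16F0 (0.39 ± 0.57) or B16F10 (-2.08 ± 0.92). The letters CACGTG, which read the same on both strands, were sought in the 250 bases before each start in the RefSeq promoter table (GRCm38.p6), where 29 of the 34 genes had an entry and Rab38, Sytl2, Ap3s1, Bloc1s6 and Vps33b had none. They occurred in 8 of the 29 genes (27.6%), Rab27a, Mlph, Hps3, Hps5, Bloc1s1, Bloc1s3, Vps33a and Atp7a, and in 6.86% of all 27025 genes of the table. Counted over promoters, 25% of the 32 entries of these genes held it, and 6.02% of all entries. The longer M-box TCATGTG (reverse complement CACATGA) occurred in 1 gene, Hps1 (3.45%, against 3.72% of all genes). A match is a description of these letters and not a bound site. The windows around the matches in these 8 genes are shown 5′ to 3′ on the strand of the gene, with the E-box letters in capitals.
Rab27a, chr9:73063898-73063919 (GRCm38.p6, plus strand): cttgCACGTGctcctccgtctg
Mlph, chr1:90915040-90915069 (GRCm38.p6, plus strand): tcaggagtagccCACGTGatctgagccgca
Hps3, chr3:20035308-20035337 (GRCm38.p6, minus strand): ggtcgcagcgctCACGTGatccggagcagc
Hps5, chr7:46796091-46796120 (GRCm38.p6, minus strand): gggcgctgagggCACGTGaccggaaacgcc
Hps5, chr7:46796056-46796085 (GRCm38.p6, minus strand): gggcctccggagCACGTGaccaccaccgcg
Bloc1s1, chr10:128923526-128923555 (GRCm38.p6, minus strand): aggctcttgcgtCACGTGatactgcgatca
Bloc1s3, chr7:19508361-19508390 (GRCm38.p6, minus strand): cataactcggctCACGTGacgctgcgagag
Vps33a, chr5:123573018-123573047 (GRCm38.p6, minus strand): ggatCACGTGaacgtcccgtCACGTGacgc
Atp7a, chrX:106027125-106027154 (GRCm38.p6, plus strand): cgtgctccctttCACGTGacgtggaccatt
The Vps33a window holds 2 matches, and the 2 of Hps5 have a window each. The Rab27a and Bloc1s1 windows lie before RefSeq starts that are inside the longer GENCODE genes. The windows of Hps3, Bloc1s3 and Vps33a and the second of Hps5 reach past the 5′ end of the GENCODE gene, in Vps33a with matched letters. Genes with the E-box letters moved both ways: 4 rose and 2 fell in Melan-A, 2 rose and 4 fell in B16F0, and 1 rose and 5 fell in B16F10. Of the 21 matched genes without them, 9 rose and 6 fell, 5 rose and 8 fell, and 5 rose and 10 fell. Of all tested genes, 23.4% rose and 24.7% fell in Melan-A, 25.1% and 25% in B16F0, and 25.5% and 25.3% in B16F10. Genes outside the 34 that hold these letters were not counted by direction, so these counts are not read as an effect of the E-box. The part of Mitf in any of these changes was not tested.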

How the data were processed

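RNA-seq was performed on 12 libraries of total RNA from cultured cells, 2 in each of 6 groups. Per the labels, the authors' processing notes name cutadapt, STAR, DESeq2 and the mouse genome build mm10, and the deposited table holds whole-number read counts per gene that had not been normalised. Versions, the counting tool and its strand setting are not given in the sources used here.

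Groups were taken from the sample labels. Counts were analysed in R 4.3.3 with edgeR 4.0.16 (TMM scaling, filterByExpr, quasi-likelihood F test, 6 group means fitted on 12 libraries, no replicate block), and p-values were adjusted by the Benjamini-Hochberg method over 18338 genes with a threshold of 0.05. The SE is the log2 fold change divided by the square root of F. The floor was 3 counts per library, or 0.033 to 0.0623 CPM. Floors and counting intervals cover counting error only. The scripts were tested on simulated counts. Alternatives were DESeq2 1.42.0, RLE scaling, other filters and thresholds, a replicate block, a fit of each line alone and leaving out each library. Gene positions and overlaps are from GENCODE M21 (GRCm38), the assembly that mm10 denotes, and promoters are from RefSeq (GRCm38.p6). Replicates differed by more than counting noise (chi-square per gene 2.82 to 4.97).

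The 34 genes, the marker lists and the rule for named genes were chosen with earlier results of these data known. Values in full are given for genes called alike in all 3 lines (up to 8, by the smallest change), genes called in all 3 lines in differing directions, the 5 with the largest B16 minus Melan-A difference of the change, up to 8 with the largest untreated difference shared by both B16 lines and the 3 with the largest untreated difference between the B16 lines. The others are given by range and count.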

Additional observations from a re-analysis of the deposited data

Results flagged for a closer look

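The SX-682 change differed among Melan-A, B16F0 and B16F10 in 25 of the 34 genes by edgeR's test over both line contrasts (adjusted p under 0.05), and 47.4% of all tested genes did so. The size of the difference is given as the gap between the highest and the lowest of the 3 log2 fold changes. Among the Rab GTPases it was 1.80 for Rab17, 0.782 for Rab27a, 0.583 for Rab32, 0.450 for Rab38 and 0.180 for Rab7. Among the effectors and motors it was 1.21 for Mlph, 0.387 for Myo5a and 0.356 for Kif13a. The BLOC-3 subunit Hps4 had a gap of 0.599 and the BLOC-2 subunit Hps5 one of 0.415. In AP-3 the gap was 0.387 for Ap3m1, 0.361 for Ap3d1 and 0.246 for Ap3s1. In BLOC-1 it was 0.511 for Bloc1s3, 0.400 for Bloc1s5, 0.357 for Dtnbp1 and 0.316 for Bloc1s4. Lyst had 0.596, Vps33b 0.325 and Vps33a 0.257. The membrane proteins followed with 0.444 for Gpnmb, 0.392 for Cd63, 0.358 for Tpcn2 and 0.245 for Atp7a. The Tpcn2 call was lost in 7 of 17 alternatives (adjusted p 0.01 to 0.23), which were DESeq2 and leaving out either Melan-A control, the first SX-682 library of Melan-A, the first control of B16F10 or either of its SX-682 libraries. The call was also lost for Mcoln3 without the first control or either SX-682 library of B16F0 (adjusted p = 0.17, 0.12 and 0.087), for Vps33b without the first control or first SX-682 library of B16F0 (0.061 and 0.11), for Vps33a without the second SX-682 library of B16F10 (0.068), for Bloc1s3 without the first Melan-A control (0.057) and for Bloc1s4 without the first SX-682 library of Melan-A (0.074). The gap of 2.85 for Mcoln3 rests on B16 libraries of 0 to 14 counts and depends on the prior count.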

How the results depend on the processing

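Of 5279 values of the 34 genes recomputed under an alternative, 5134 kept their side of the threshold, 120 lost a call and 25 gained one. Signs changed 84 times, all among the 5134 and in 0 cases for a value called in either fit. The smallest counts moved most. For the B16 minus Melan-A difference, the 4 genes with a more positive change became 2 in DESeq2, 2 without a filter on low counts, 2 at an adjusted p under 0.01, and 1 to 4 with 1 library left out. For B16F10 minus B16F0, the 5 became 3 at an adjusted p under 0.01 and 3 to 6 with 1 library left out. Leaving out a library leaves 1 sample in its group, which is then assumed to vary like the others. Unfiltered tables adjust over 34513 genes, and the cause of the other shifts was not tested.

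Requiring also a log2 fold change of 0.5 or more in either direction left 3 of the 34 genes raised and 0 lowered in Melan-A (8.3% and 8% of all tested genes), 1 and 4 in B16F0 (10.2% and 9.22%), 0 and 6 in B16F10 (11.4% and 10.1%), and 0 and 0 in all 3 lines (2.6% and 1.97%). It left 8 genes that differed among lines (20.4%), 0 more positive and 3 more negative for B16 minus Melan-A (5.6% and 5.38%), and 0 and 1 for B16F10 minus B16F0 (4.56% and 3.84%). Untreated counts became 14 higher and 5 lower in B16F0 (23.2% and 29.8%), 14 and 5 in B16F10 (20.2% and 30.1%), and 5 and 6 for B16F10 minus B16F0 (15.2% and 18.7%). With the replicate block the counts were the same except for untreated B16F10 minus B16F0, with 17 higher and 9 lower. Same-numbered libraries did not deviate together (correlations -0.028, -0.011 and -0.0089), so the numbers were not taken to pair cultures. The median untreated B16F10 minus Melan-A difference of all genes was -0.10, -0.13 with RLE scaling and -0.015 over genes with at least 10 counts in every library. Depth limited Myrip and, in the B16 lines, Mcoln3.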
